A study of Homo sapiens with 4 samples.

Results

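The genes described here are the 8 that take creatine into the cell, make it and attach phosphate to it. They were picked by symbol around the low level of the creatine transporter gene SLC6A8 in AFF4 knockdown cells, so the knockdown against control contrast chose SLC6A8. Its values, and those of the 7 genes around it in that contrast, are given below as a description. Fitted differences carry standard errors from the edgeR fit over all genes, and edgeR calls are counted once beside their share over all genes, but neither is used as evidence about these 8 genes. All 8 symbols (SLC6A8, GATM, GAMT, CKB, CKM, CKMT1A, CKMT1B and CKMT2) were among the 28103 in the count table, and 5 of them (SLC6A8, GATM, GAMT, CKB and CKM) were among the 13572 genes left after a filter on low counts.

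The RNA came from HEL, a human erythroleukaemia line whose labels give the cell type as erythroblast. There were 2 control libraries of wild-type genotype, called Ctrl 1 and Ctrl 2, and 2 libraries of the genotype AFF4 knockdown, called AFF4_KD 1 and AFF4_KD 2. Both groups were grown in RPMI-1640 with serum and antibiotics, poly(A) RNA was sequenced, and the sources used here do not give how AFF4 was lowered. AFF4 holds together the super elongation complex, whose kinase helps paused RNA polymerase II move into the gene body, and the series title names pause release as its subject. The labels do not say that the replicates came from separate cultures, so p-values rest on library-to-library spread that may be technical.

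Creatine is made in 2 steps. GATM, a mitochondrial enzyme, moves the amidino group of arginine onto glycine, and GAMT then methylates the product guanidinoacetate with S-adenosylmethionine. Cells that make little creatine take it up through SLC6A8, a sodium- and chloride-coupled carrier of the plasma membrane. Creatine kinases pass phosphate between ATP and creatine, so that phosphocreatine buffers ATP where demand is high. CKB is the cytosolic form of brain and many other tissues, CKM the cytosolic form of muscle, CKMT1A and CKMT1B encode the ubiquitous mitochondrial form, and CKMT2 the mitochondrial form of heart and skeletal muscle. Red cell precursors take up creatine, and its level in red cells is higher when the cells are young.

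The promoters of 2 genes are shown because SLC6A8 is the gene the set was built around and CKB is the most abundant one. Each is the 250 bases before the gene's start in RefSeq (GRCh38.p14), SLC6A8 at chrX:153687676-153687925 on the plus strand and CKB at chr14:103522831-103523080 on the minus strand, written 5′ to 3′. The RefSeq starts differ from those of the GENCODE gene models used for the counts' positions below. Capitals mark, on either strand, every GGGCGG (the letters of a GC box), every CCAAT (the letters of a CCAAT box) and every TATAAA (the letters of a TATA box).
SLC6A8: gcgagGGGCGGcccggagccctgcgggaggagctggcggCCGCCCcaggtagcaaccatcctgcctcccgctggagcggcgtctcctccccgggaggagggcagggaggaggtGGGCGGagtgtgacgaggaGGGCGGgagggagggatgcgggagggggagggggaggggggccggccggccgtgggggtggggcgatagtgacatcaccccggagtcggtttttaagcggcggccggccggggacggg
CKB: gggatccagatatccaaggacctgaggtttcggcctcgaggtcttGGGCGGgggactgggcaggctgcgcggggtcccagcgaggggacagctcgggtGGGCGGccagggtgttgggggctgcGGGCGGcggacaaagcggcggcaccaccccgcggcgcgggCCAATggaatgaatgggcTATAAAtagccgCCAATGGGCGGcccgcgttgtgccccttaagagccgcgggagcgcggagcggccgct
The SLC6A8 window is 76.4% G and C and holds 25 CG pairs, and the CKB window is 70.8% G and C with 27, against medians of 58% and 11 over 35116 RefSeq promoter windows of this length. Both hold the GC box letters 4 times, a motif present in 42.6% of all windows. CKB also has 1 TATA box match, 69 bases before the start (10.7% of all windows), and 2 CCAAT box matches (32.0% of all windows), 1 of them directly followed by a GC box match, whereas the SLC6A8 window has neither. The AP-1 letters TGACTCA, the cyclic AMP response letters TGACGTCA, the E-box letters CACGTG and the hypoxia response letters ACGTG were searched on both strands and occur in neither window. They occur in 4.20%, 1.65%, 6.34% and 18.5% of all windows, and the last lies within the E-box letters.

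The libraries held between 14903878 and 19129008 counts, and values per library below are CPM (counts per 1000000 counts of the library) after TMM scaling. AFF4 itself had 1650 and 1033 counts in Ctrl 1 and Ctrl 2 and 338 and 319 in AFF4_KD 1 and AFF4_KD 2, which matches the labels. All 9 erythroid markers looked at were above 1 CPM, and their summed level was 11534 to 12963 CPM in Ctrl against 8083 to 8259. Of 6 megakaryocytic markers 5 were above 1 CPM and GP1BB was at 0, with sums of 2038 to 2834 CPM in Ctrl against 1912 to 2033. Of 8 muscle markers 3 were above 1 CPM (ACTA1, TNNT1 and DES), MYOD1 was at 0 and MYH1, MYH2, MYH7 and TNNT3 had at most 1 count in a library, and the sums were 49.3 to 68.3 CPM against 47.4 to 50.7. Of 5 fibroblast markers 4 were at 0 (COL1A2, COL3A1, DCN and LUM), with sums of 0.107 to 0.201 CPM against 0.0553 to 0.0594. The neuronal list summed to 5.30 to 5.76 CPM in Ctrl against 15.9 to 16.7, SYP having most of the counts, with SNAP25, RBFOX3 and STMN2 at 0. Summed lymphoid levels were 1.71 to 2.41 CPM in Ctrl against 2.05 to 2.32, with CD3E and CD3D at 0, and summed myeloid levels were 56.0 to 60.7 and 50.2 to 53.2 CPM. The part of these markers in the results below was not tested. In bulk RNA, fewer cells of a type and less RNA per cell cannot be told apart.

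SLC6A8 (chromosome X, 153688099 to 153696593, plus strand, GENCODE v29 on GRCh38) gave 762 counts in Ctrl 1, 929 in Ctrl 2, 236 in AFF4_KD 1 and 198 in AFF4_KD 2. That is 40.8, 62.2, 13.0 and 11.8 CPM. Both knockdown libraries lay far below both Ctrl libraries, and they lay close together while the Ctrl libraries differed by 1.52 times. The means were 51.5 ± 15.1 CPM in Ctrl against 12.4 ± 0.908 (SD, n = 2 each), a fitted log2 difference of -2.05 ± 0.25 (SE), or 4.14-fold lower. Of all tested genes, 23 had a lower log2 difference.

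**Figure D1:**
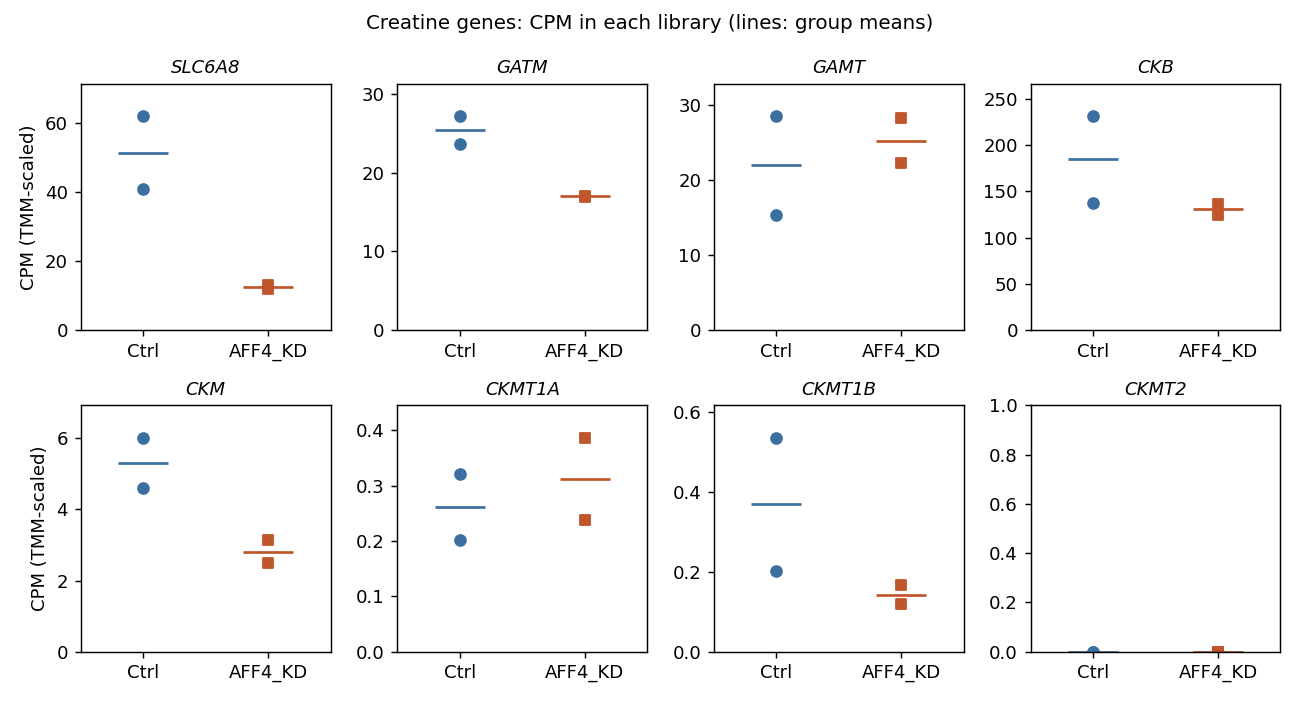
CPM after TMM scaling (vertical axes, each from 0) for the 8 creatine genes in the 2 Ctrl libraries (circles) and the 2 AFF4_KD libraries (squares), with lines at the group means. SLC6A8, GATM and CKM have both knockdown points well below both Ctrl points, CKB has its lower Ctrl point level with the knockdown, GAMT overlaps, and CKMT2 is at 0.

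A pseudogene copy of the transporter, SLC6A10P on chromosome 16 (32877469 to 32885501), was also lower in both knockdown libraries than in both Ctrl libraries. Its counts were 25 and 43 in Ctrl against 6 and 13 in the knockdown, or 1.34, 2.88, 0.332 and 0.772 CPM. The log2 difference was -1.91 ± 0.54 (SE) and did not pass the edgeR test (adjusted p = 0.168). It ran from -2.62 without AFF4_KD 2 and -2.38 without Ctrl 1 to -1.40 without AFF4_KD 1 and -1.29 without Ctrl 2. With no filter the gene was called lower, as were 406 of 18862 tested genes. With a block on the replicate number it was called lower, as were 480 of 13572. It was also called with the GC correction described below, which called 14.4% of all tested genes lower. Adding the block to that correction kept the call, with 2425 of 13217 genes called lower. DESeq2, limma-voom and the other scalings did not call it. Of the distinct 50-base stretches of SLC6A8 transcripts, 6.09% also occur in SLC6A10P transcripts, so reads of the 2 genes can be exchanged. The SLC6A10P counts amounted to between 2.54% and 6.57% of the SLC6A8 counts of a library, and the sum of both genes was 42.1 and 65.1 CPM in Ctrl against 13.4 and 12.5 CPM in the knockdown. SLC6A8 also overlaps PNCK on the other strand by 912 bases, and PNCK had at most 14 counts in a library. SLC16A12, another membrane carrier of creatine, had 1 count in AFF4_KD 2 and 0 in the other 3 libraries.

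The synthesis enzymes did not share a direction. GATM (chromosome 15, 45361124 to 45402327, minus strand) had 509 and 354 Ctrl counts against 307 and 286. That is 27.3 and 23.7 CPM in Ctrl and 17.0 CPM in each knockdown library, so the groups did not overlap. From 25.5 ± 2.51 to 17.0 ± 0.0129 CPM (SD, n = 2 each), its log2 difference was -0.59 ± 0.18 (SE), or 1.5-fold lower. At 307 and 286 counts, counting error alone is larger than that knockdown SD, which therefore understates the spread. GAMT (chromosome 19, 1397026 to 1401570, minus strand) had 286 and 426 counts in Ctrl against 402 and 475 in the knockdown. At 15.3 and 28.5 CPM in Ctrl against 22.2 and 28.2 CPM in the knockdown, its groups overlapped, and Ctrl 1 was the lowest library. With means of 21.9 ± 9.34 and 25.2 ± 4.24 CPM (SD, n = 2 each), its log2 difference was 0.21 ± 0.31 (SE). The sign of GAMT turned on 1 control library, since the log2 difference was -0.18 without Ctrl 1 and 0.71 without Ctrl 2.

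Among the kinases, CKB (chromosome 14, 103519659 to 103523111, minus strand) carried nearly all the counts. It had 2574 and 3466 counts in Ctrl against 2250 and 2302 in the knockdown, or 138, 232, 124 and 137 CPM. The knockdown libraries were both below the Ctrl libraries, but AFF4_KD 2 was almost level with Ctrl 1, and the Ctrl libraries differed by 1.68 times. With means of 185 ± 66.6 and 131 ± 8.74 CPM (SD, n = 2 each), the log2 difference was -0.50 ± 0.24 (SE), or 1.42-fold lower, and it was -0.08 without Ctrl 2 and -0.83 without Ctrl 1. CKB made up between 96.2% and 97.6% of the counts of the 5 creatine kinase genes in each library, and between 94.4% and 96.5% per kilobase of exonic length. Summed over the kinases the level was 143 and 238 CPM in Ctrl against 127 and 140 CPM in the knockdown, so the groups did not overlap but lay closer together than the Ctrl libraries did to each other.

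The muscle-type kinase CKM (chromosome 19, 45306414 to 45322977, minus strand) was detected at a low level. It had 86 and 90 counts in Ctrl against 45 and 53 in the knockdown, which is 4.61, 6.03, 2.49 and 3.15 CPM. The groups did not overlap, with means of 5.31 ± 1.004 and 2.82 ± 0.467 CPM (SD, n = 2 each), and the log2 difference was -0.91 ± 0.26 (SE), or 1.88-fold lower. Of the muscle markers in the same libraries, TNNT1 was at 39.6 to 60.7 CPM, ACTA1 at 3.69 to 5.35 and DES at 1.78 to 2.48, while MYOD1 was at 0 and MYH1, MYH2, MYH7 and TNNT3 had at most 1 count. Their part in the CKM level was not tested.

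The mitochondrial kinases were near or at 0 and did not pass the filter. CKMT1A (chromosome 15, 43692886 to 43699222) had 6, 3, 7 and 4 counts in Ctrl 1, Ctrl 2, AFF4_KD 1 and AFF4_KD 2, and CKMT1B (chromosome 15, 43593054 to 43604901) had 10, 3, 3 and 2. Of the distinct 50-base stretches of CKMT1A transcripts 66.7% also occur in CKMT1B, so the split between these neighbouring copies is uncertain. Their sum was 16 and 6 counts in Ctrl against 10 and 6 in the knockdown (0.857, 0.402, 0.553 and 0.356 CPM), and the groups overlapped. CKMT1B also overlaps STRC on the other strand by 5339 bases. CKMT2 (chromosome 5, 81233285 to 81266397, plus strand) was at 0 in all 4 libraries, and a count of 0 allows up to 3 counts, or 0.161 to 0.201 CPM, for counting error only. CKMT2-AS1, which spans CKMT2 on the other strand and was looked at after its values were seen, had 86 and 85 counts in Ctrl against 62 and 51 in the knockdown. The sources used here do not say whether counting used strand, so reads of an antisense pair are not separable from the table alone.

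Levels between genes were compared per kilobase of exonic length. In Ctrl the order was CKB (69.3 ± 24.96 CPM per kilobase, SD, n = 2), SLC6A8 (9.37 ± 2.75), GAMT (9.12 ± 3.89), GATM (3.83 ± 0.378), CKM (3.21 ± 0.606), CKMT1B (0.106 ± 0.0682) and CKMT1A (0.0840 ± 0.0274). Between neighbours in this order, SLC6A8 and GAMT overlapped, as did GATM and CKM and as did CKMT1B and CKMT1A. In the other steps both Ctrl libraries of the higher gene lay above both of the lower one. In the knockdown SLC6A8 had rank 4 at 2.26 ± 0.165 CPM per kilobase, below GAMT (10.49 ± 1.76) and GATM (2.56 ± 0.00194). The step to GATM was small, with GATM at 2.55 and 2.56 and SLC6A8 at 2.37 and 2.14 in AFF4_KD 1 and AFF4_KD 2. Whether that order exceeds counting error was not tested. CKB remained the highest at 48.9 ± 3.28 CPM per kilobase.

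Of the 5 creatine genes past the filter, 4 had both knockdown libraries below both Ctrl libraries, a placement found in 23% of all tested genes (46.1% did not overlap in either direction). The contrast chose the set, so nothing is read from that count. SLC6A8 was the 1 gene of the 5 at an edgeR adjusted p under 0.05, a rule met by 0.641% of all tested genes in either direction and by 0.295% as lower, and nothing is read from that either. Those calls moved with the setting. SLC6A8 was not called with a filter of at least 5 CPM in 2 libraries (edgeR adjusted p = 0.0686), where 1 gene was called higher and 4 lower of 10813. It was called in every other alternative that kept 2 libraries a group. Those called from 42 genes higher and 32 lower (scaling by library size only) to 2378 and 2425 (block with GC correction). Nothing is read from how many alternatives called it. The correction for GC content described next, under which 28.3% of all tested genes were called, called SLC6A8, CKB, CKM and GATM. With a block on the replicate number added it called the same 4, beside 2378 higher and 2425 lower of 13217 genes. Apart from fits with 1 library left out, CKB and GATM were called in no other alternative, and GAMT in none. CKM was also called with no filter, where 406 of 18862 tested genes were called lower. The block alone called it too, where 480 of 13572 were lower. The median log2 difference of the 5 was -0.59, against -0.0089 over all tested genes.

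The creatine genes are mostly rich in G and C, and the Ctrl libraries differed along GC content. Across tested genes, the difference between Ctrl 2 and Ctrl 1 had a Spearman rho of 0.815 with transcript GC content, and the difference between the knockdown libraries 0.406. Genes are not independent replicates, and the genes of a library share its preparation and depth. When the genes were cut into 10 equal bins of GC content, the median of Ctrl 2 minus Ctrl 1 in log2 CPM was 0.81 in the highest bin and -0.42 in the lowest. Transcript GC content was 65.1% for CKB, 62.2% for SLC6A8, 59.6% for GAMT, 58.7% for CKM and 45.8% for GATM. The corresponding differences of Ctrl 2 minus Ctrl 1 were 0.75, 0.61, 0.89, 0.38 and -0.20 in log2 CPM, against medians of 0.81, 0.81, 0.55, 0.55 and -0.15 in the GC bin that holds each gene.

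**Figure D2:**
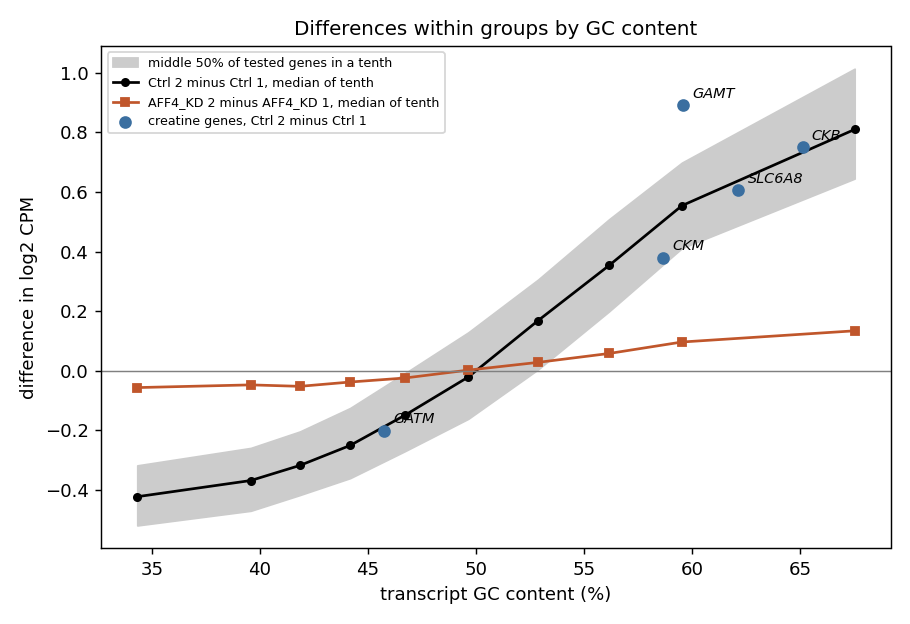
Difference in log2 CPM between the 2 libraries of a group (vertical axis) against transcript GC content in percent (horizontal axis), as medians over 10 bins of the tested genes placed at the middle of each bin's GC range, with the middle 50% of genes shaded for the Ctrl pair and the 5 creatine genes as points. The Ctrl line climbs from -0.42 to 0.81 while the knockdown line stays between -0.06 and 0.13, and GAMT is the point outside the shaded band on the upper side.

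When the trend with GC content was taken out of each library, a step chosen after the data were seen, the Ctrl libraries came close for 4 of the 5 genes. That follows in part from the step itself, which takes out each library's own trend. The remaining difference of Ctrl 2 minus Ctrl 1 was -0.06 for SLC6A8, -0.08 for CKB, -0.08 for CKM and 0.02 for GATM, and 0.38 for GAMT. In that order AFF4_KD 2 minus AFF4_KD 1 was -0.25, 0.01, 0.26, 0.04 and 0.26, against -0.15, 0.14, 0.33, 0.0015 and 0.34 before the step. The knockdown libraries thus moved apart for SLC6A8 and GATM. In the same order the fitted log2 differences between knockdown and Ctrl were -2.01, -0.44, -0.91, -0.59 and 0.25. The sizes therefore moved little while the agreement of the controls changed. Both knockdown libraries stayed below both Ctrl libraries for SLC6A8, CKB, CKM and GATM, and the GAMT groups still overlapped. The share of all tested genes placed so after this step was not worked out, so nothing is read from this.

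**Figure D3:**
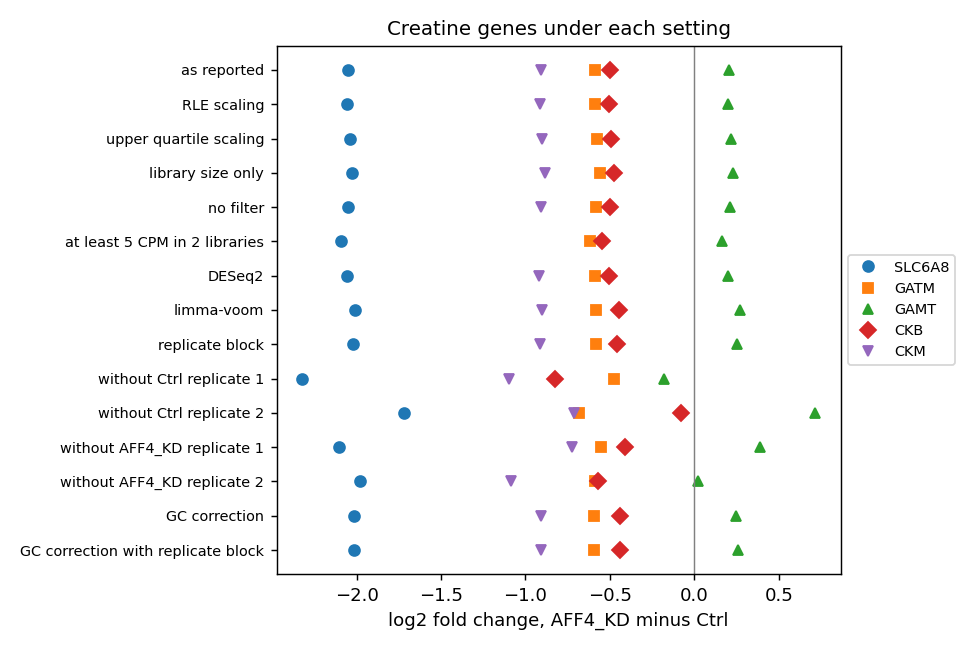
Log2 difference of AFF4_KD minus Ctrl (horizontal axis) for the 5 tested creatine genes under each setting of scaling, filter, test, pairing, library choice and GC correction (rows). SLC6A8 runs from -2.32 to -1.72, GATM and CKM stay below 0, CKB reaches -0.08 without Ctrl 2, and GAMT lies on both sides of 0.

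The profile most like that of SLC6A8 over the 4 libraries, by Euclidean distance of log2 CPM centred on each gene's mean, was that of ABCC3, an organic anion export pump, at 0.288. WNT7A (0.314), ABCG4 (0.347), HAPLN3 (0.382) and MT1E (0.388) followed, against a median distance of 2.095 over all tested genes. WNT7A had at most 26 counts and ABCG4 at most 12 in a library. The genes nearest to CKB were MKNK2 (0.024), CCDC85C (0.038), ENG (0.042), YIPF2 (0.044) and ZBTB46 (0.050), against a median of 0.812. With 4 libraries in 2 groups there are few points for such a measure, and genes with a similar GC content share the difference between the Ctrl libraries.

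Genes near SLC6A8 on chromosome X did not share the size of its difference. The 5 tested genes on each side spanned 619 kilobases and had log2 differences from -0.98 to 0.22, with a median of -0.14. The steepest was DUSP9, a MAP kinase phosphatase, at -0.98 ± 0.32 (SE; edgeR adjusted p = 0.223), and the next gene downstream, BCAP31, an endoplasmic reticulum chaperone, lay 3899 bases away at 0.00 ± 0.16. The 10 tested genes around CKB had log2 differences from -0.11 to 0.50 with a median of 0.01. Of these 20 genes, 0 passed the adjusted threshold with edgeR, with DESeq2 or with limma-voom. Over all 13572 tested genes edgeR called 47 higher and 40 lower, DESeq2 188 and 222, and limma-voom 53 and 39. Nothing is read from the 0, since few genes were called anywhere. An unadjusted edgeR p under 0.05 was found for 1 gene near SLC6A8, as lower, and for 0 near CKB, where 6.79% of all tested genes met it as higher and 8.19% as lower. With the GC correction 2 of the 10 near SLC6A8 were called lower and 2 of the 10 near CKB higher, beside 14.4% and 13.9% of all tested genes.

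Few other transporters of the SLC6 family were measurable. Of 18 family members beside SLC6A8, 4 passed the filter. The edgeR test called 0 of these 4, beside 0.641% of all tested genes, so nothing is read from that 0. In Ctrl the order per kilobase was SLC6A19, a neutral amino acid carrier (15.7 ± 4.22 CPM per kilobase), SLC6A6, the taurine transporter (10.1 ± 0.758), SLC6A8 (9.37 ± 2.75), SLC6A9, a glycine transporter (1.32 ± 0.501), and SLC6A11, a GABA transporter (0.180 ± 0.0848; SD, n = 2 each). SLC6A6 and SLC6A8 overlapped in Ctrl and stood apart in the knockdown, at 11.1 ± 0.419 and 2.26 ± 0.165 CPM per kilobase. The log2 differences of SLC6A19 and SLC6A6 were -0.42 ± 0.21 and 0.14 ± 0.15 (SE; edgeR adjusted p = 0.412 and 0.750).

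Genes that serve the creatine pathway were looked up in 8 lists chosen by function, with 84 genes in all, of which 50 were tested. The edgeR test called 0 of them, beside 0.641% of all tested genes. When its p was left unadjusted, 2 were higher and 7 lower (6.79% and 8.19% of all tested genes). Limma-voom called 0, beside 53 higher and 39 lower over all tested genes. DESeq2 called AK9 alone, as higher, beside 188 higher and 222 lower. Nothing is read from these counts. Without Ctrl 1 edgeR called 12 higher and 15 lower, and without Ctrl 2 11 higher and 18 lower, where the whole table also went from 47 higher and 40 lower to 2986 and 3133 or to 3407 and 3315. The median log2 difference of the 50 was -0.07, against -0.0089 over all tested genes, with 26 negative and 24 positive. Counts of signs by list below are description only, and nothing is read from them. With the trend in GC content removed, edgeR called 7 higher (MAT2A, ODC1, AK9, NME4, NME7, VDAC3 and PRKAB1) and 10 lower (SLC6A10P, SLC6A19, NNMT, ARG2, AZIN1, OAZ1, AK4, SLC25A4, VDAC2 and PRKAG1), beside 28.3% of all tested genes called (13.9% higher and 14.4% lower).

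Of the genes listed for arginine, ornithine and glycine, 8 of 13 tested were negative. ARG2, the mitochondrial arginase, was at 26.8 and 26.0 CPM in Ctrl against 18.5 and 15.3 CPM in the knockdown. Its groups were apart, with a log2 difference of -0.65 ± 0.19 (SE; edgeR adjusted p = 0.181). OAZ1, the antizyme that lowers ornithine decarboxylase, and AZIN1, which counters it, had -0.35 ± 0.14 and -0.34 ± 0.15 (SE; edgeR adjusted p = 0.308 and 0.355).

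Of the methyl donor genes, which supply the S-adenosylmethionine used by GAMT, 6 of 10 tested were positive. NNMT, which spends S-adenosylmethionine on nicotinamide, had 23 and 19 Ctrl counts against 11 and 7, a log2 difference of -1.27 ± 0.37 (SE; edgeR adjusted p = 0.181). The synthetase MAT2A was at 227 and 200 CPM in Ctrl against 266 and 258 CPM in the knockdown, with 0.29 ± 0.14 (SE; edgeR adjusted p = 0.387). AHCY, which clears S-adenosylhomocysteine, had 0.17 ± 0.18 and overlapping groups.

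Adenylate kinases form the other phosphate relay of the cell, and 3 of 6 tested were negative. AK9 was at 3.43 and 1.81 CPM in Ctrl against 7.96 and 6.59 CPM in the knockdown, a log2 difference of 1.45 ± 0.32 (SE; edgeR adjusted p = 0.0997). It was the largest positive difference among the 50 tested companion genes and stayed positive in all 14 alternatives. The mitochondrial AK4 had -0.47 ± 0.15 and AK3 -0.17 ± 0.15 (SE; edgeR adjusted p = 0.206 and 0.697). Nucleoside diphosphate kinases were positive in 4 of 5, among them NME7 (0.31 ± 0.19) and NME4 (0.20 ± 0.22), while NME3 had -0.25 ± 0.35 (SE; edgeR adjusted p = 0.518, 0.772 and 0.831).

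Mitochondrial creatine kinase sits between the adenine nucleotide carrier of the inner membrane and the VDAC pores of the outer one, and 4 of 6 tested genes of that group were negative. SLC25A4, the carrier form of heart and muscle, was at 20.2 and 20.6 CPM in Ctrl against 13.3 and 14.5. Its log2 difference was -0.55 ± 0.18 (SE; edgeR adjusted p = 0.226), while VDAC2 and VDAC3 had -0.24 ± 0.14 and 0.16 ± 0.16. Of the subunits of AMPK, the kinase that senses a low ATP level, 2 of 5 were negative. PRKAG1 was at 85.6 and 78.9 CPM in Ctrl against 57.8 and 59.5 CPM in the knockdown, and PRKAB1 at 73.1 and 73.9 against 99.8 CPM in each knockdown library. Their log2 differences were -0.49 ± 0.15 and 0.44 ± 0.14 (SE; edgeR adjusted p = 0.203 and 0.217), and that of PRKAG2 was 0.23 ± 0.24.

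**Figure D4:**
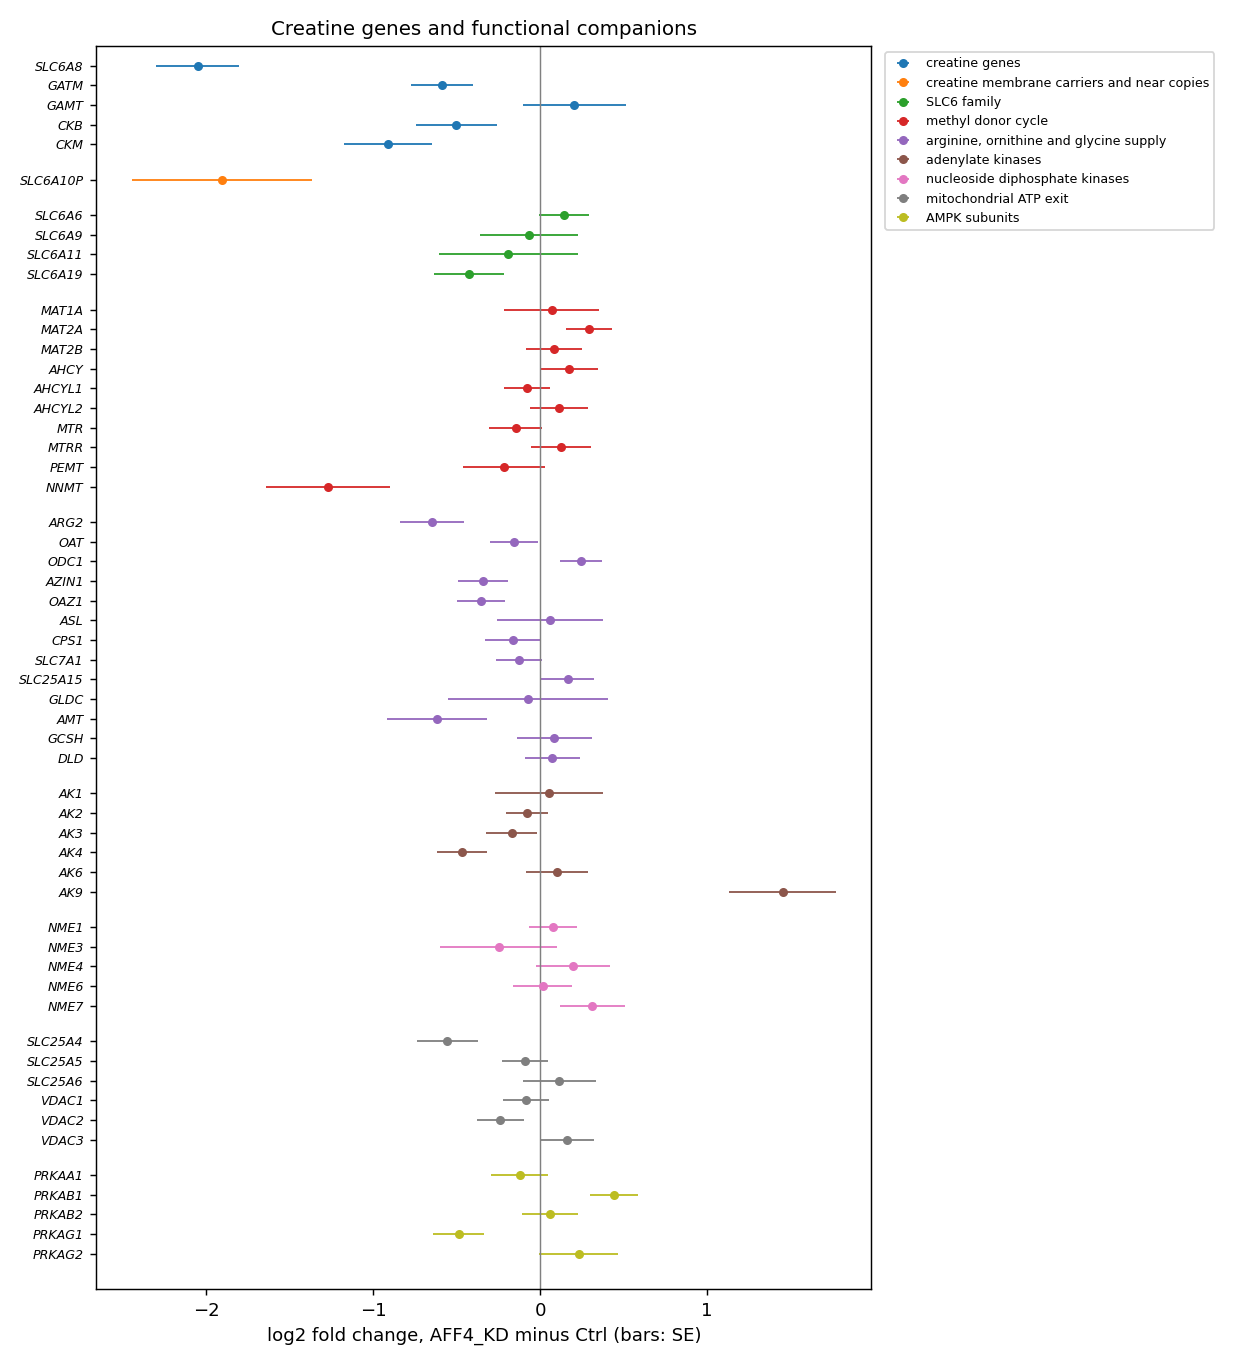
Log2 difference of AFF4_KD minus Ctrl (horizontal axis, bars are standard errors of the edgeR fit, 2 libraries a group) for the 5 tested creatine genes and the 50 tested companion genes, coloured by list. SLC6A8 at -2.05 and SLC6A10P at -1.91 are the lowest 2 points, and AK9 at 1.45 is the highest. Of the companion genes 0 pass an edgeR adjusted p of 0.05, beside 0.641% of all tested genes.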

How the data were processed

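Poly(A) RNA-seq of 4 HEL libraries was used. The deposited values are whole-number read counts per gene symbol. The submitters' processing notes name fastp 0.13.1, HISAT2 2.1.0, featureCounts 1.6.1 and hg38. The sources used here do not state the annotation, the use of strand or the handling of multi-mapped reads.

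The test was edgeR 4.0.16 (R 4.3.3) with filterByExpr (minimum count 10, minimum total 15), TMM scaling, a quasi-likelihood F test of group and Benjamini-Hochberg adjustment over 13572 genes, called at 0.05. The code was tried on simulated counts with the same dispersion for all genes and libraries, so its error rate on these libraries is not known from that. TMM takes most genes as unchanged, so differences are relative to other genes. SE is the absolute log2 difference over the square root of F. Log2 CPM uses a prior count of 2. Positions, exonic lengths and transcript GC content came from GENCODE v29, where 25862 symbols matched by name, 154 by another symbol and 2087 did not.

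The members and lists were chosen with earlier results of these data known. Named were the creatine genes, AFF4, companion genes called or else up to 3 per list with the smallest adjusted p, the 5 profiles nearest to SLC6A8 and to CKB, and 5 tested neighbours on each side. Alternatives were scaling by RLE, by the upper quartile or by library size, 2 filters, DESeq2 1.42.0, limma-voom (limma 3.58.1), a replicate block, each library left out (the spread then coming from the group with 2 libraries) and, chosen after seeing the data, a lowess GC correction (span 0.4) as an offset.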

Additional observations from a re-analysis of the deposited data

How the results depend on the processing

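SLC6A8, CKB, CKM and GATM kept a negative log2 difference in each alternative in which they were tested (14 for SLC6A8, CKB and GATM, and 13 for CKM, which the filter of at least 5 CPM in 2 libraries removed). GAMT was positive in 13 of 14. With 1 library left out the ranges were -2.32 to -1.72 for SLC6A8, -0.83 to -0.08 for CKB, -1.10 to -0.71 for CKM, -0.68 to -0.48 for GATM and -0.18 to 0.71 for GAMT. For CKB and GAMT the log2 difference of the groups (-0.50 and 0.21) was smaller in size than Ctrl 2 minus Ctrl 1 (0.75 and 0.89), and 2 libraries a group limit the precision of every value.

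Among all tested genes, 47 were called higher and 40 lower. The counts were 328 and 406 with no filter, 1 and 4 with at least 5 CPM in 2 libraries, 188 and 222 in DESeq2, 1834 and 1900 with the GC correction, and from 35 to 3407 higher and from 11 to 3315 lower with 1 library left out. Of the companion genes, 0 were called in either direction. This became 1 higher and 1 lower with no filter, 1 higher in DESeq2, 7 higher and 10 lower with the GC correction, and from 0 to 12 higher and from 0 to 18 lower with 1 library left out.

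The labels number the replicates 1 and 2 in both groups, and only the number is shared. Deviations of same-numbered libraries correlated at 0.285 over genes. With the number as a replicate block, 408 genes were higher and 480 lower over all genes, 1 and 1 among the companion genes, and with block and GC correction 2378 and 2425, and 9 and 10. Among the creatine genes the block added a call for CKM, as lower, and it also called SLC6A10P. The cause of these changes was not tested.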
